A study of Mus musculus with 4 samples.

Results

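The genes that copy DNA and divide the cell were followed in chromatin accessibility data from old and young mouse mesenchymal stem cells (MSCs). They comprised 38 genes of DNA replication and mitosis, and every peak of the deposited peak table that overlapped the body of a member gene, or the 5 kb before its start, was taken as a member peak. The rule found 106 such peaks among 117282 in the table, and each of the 38 genes had at least 1. A promoter peak lay within 1 kb of a start of a protein-coding transcript. All 38 genes had a promoter peak of their own, 39 in all because Ccnd3 had 2. A further 5 member peaks lay at the promoter of a neighbouring gene, and 62 lay away from any promoter, 26 of them in exons, 33 in introns and 3 between genes. The number of peaks ran from 1 in 13 of the genes to 15 in Cdk6.

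Accessibility was measured by ATAC-seq, in which a transposase inserts sequencing adapters where DNA is not covered by nucleosomes. The comparison was between 2 samples of MSCs from old mice, aged 18 to 22 months, and 2 from young mice, aged 3 to 5 months, and asked how accessibility differs with age. All 4 were grown only at 2% O2 in αMEM with 10% FBS, so every value describes cultured cells and none the bone itself. The labels name no strain, sex, genotype or treatment, and the sorting of CD45-/Ter-119-/Sca-1+/CD140a+ bone cells is described in the study's methods for young mice only. Each peak's value was its read count scaled to the total of the library and was not divided by peak width. The totals that the values imply were 28600303 and 32559794 reads for the old samples and 28259470 and 29413803 for the young ones, so that 3 reads were worth 0.921 to 1.06. Peaks held 43.8% and 50.3% of that total in the old samples and 57.5% and 62.9% in the young ones. For this reason the samples were scaled to each other by relative log expression (RLE) factors of 0.817 and 1.01 for the old and 1.07 and 1.15 for the young samples, and values are on this scale unless called deposited. The labels do not say that samples came from different animals, so p-values measure only the spread between these samples, and an exact permutation test on 2 against 2 samples cannot go below p = 0.33. In a bulk sample, a larger share of cells with an open site and a more open site in each cell cannot be told apart.

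Cells license replication origins in G1, when Cdc6 and Cdt1 help to load the Mcm2 to Mcm7 helicase. D-type cyclins with Cdk4 and Cdk6, and later E-type cyclins with Cdk2, relieve E2F factors from retinoblastoma proteins, and E2F then switches on the replication genes. Genes of G2 and mitosis are held off by the DREAM complex in resting cells and early G1, and are switched on later by B-MYB with the MuvB core and by Foxm1. DREAM and MuvB bind a short promoter element, the cell cycle homology region (CHR), and the activator NF-Y binds CCAAT boxes. MSCs divide readily in culture, and slower division is a widely described feature of aged MSCs. Accessibility at a promoter is not a measure of transcription, and many promoters of this kind are open whether or not the gene is being transcribed.

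The promoter sequences differed between groups of these genes. RefSeq promoter windows on GRCm38, from 250 bases before to 50 bases after the start, were held for 31 of the 38 genes and not for Ccnd1, Ccnd2, Mcm4, Ccna2, Foxm1, Ccne2 and Aurkb. Exact letters were searched on both strands, with overlapping matches of the same motif counted as 1. The E2F words TTTCCCGC, TTTCGCGC, TTTGCCGC or TTTGGCGC occurred in 10 of the 31 windows, against 2.26% of all 32851 windows and 3.49% of the 17901 windows that overlap a peak. The CHR words TTTGAA or TTCGAA occurred in 14 of the 31, against 19.2% of all windows and 14.2% of those in a peak. The CCAAT box occurred in 23 of the 31, against 37.4% of all windows and 36.2% of those in a peak. Of the 19 windows of genes that act in G1 and S phase, 9 held an E2F word and 4 held both a CHR word and a CCAAT box. The E2F words were uneven among them, with 6 of 8 licensing and helicase genes, 2 of 3 E2F factors, 1 of 5 G1 cyclins and kinases and 0 of 3 genes of the fork and nucleotide supply. Of the 12 windows of genes that act in G2 and mitosis, 1 held an E2F word and 10 held both of the others. The member windows had a median GC content of 57.7%, between the 52.7% of all windows and the 60% of those in a peak. Their median count of CpG was 24, against 7 in all windows and 18 in those in a peak. Each E2F word holds a CpG, and the part of CpG content in the E2F share was not tested. A match is a description of letters, not of a bound factor.

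The stretch from 160 bases before to 30 bases after the start is shown for 4 genes of each kind, in the direction of transcription, with matches to any of the 3 motifs in capitals. The early genes are Mcm6 (chr1:128359676-128359865, minus strand), Mcm5 (chr8:75109349-75109538, plus strand), Cdc6 (chr11:98907991-98908180, plus strand) and Ccne1 (chr7:38107461-38107650, minus strand). Mcm6, Mcm5 and Cdc6 carry E2F words, and Ccne1, whose promoter peak had the largest difference between old and young among the member promoters, carries none of the 3 motifs.
Mcm6: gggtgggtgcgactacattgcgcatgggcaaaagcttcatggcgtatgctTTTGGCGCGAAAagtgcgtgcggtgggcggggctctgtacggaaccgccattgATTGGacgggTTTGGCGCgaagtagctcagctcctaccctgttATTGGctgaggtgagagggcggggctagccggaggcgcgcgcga
Mcm5: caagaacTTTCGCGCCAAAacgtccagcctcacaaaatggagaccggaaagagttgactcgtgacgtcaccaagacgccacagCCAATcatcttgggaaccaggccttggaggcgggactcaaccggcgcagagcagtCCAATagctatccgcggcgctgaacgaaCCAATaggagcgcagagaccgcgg
Cdc6: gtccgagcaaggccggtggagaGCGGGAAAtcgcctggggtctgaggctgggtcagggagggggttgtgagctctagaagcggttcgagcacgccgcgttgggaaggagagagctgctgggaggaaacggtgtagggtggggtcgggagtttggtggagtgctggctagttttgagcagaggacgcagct
Ccne1: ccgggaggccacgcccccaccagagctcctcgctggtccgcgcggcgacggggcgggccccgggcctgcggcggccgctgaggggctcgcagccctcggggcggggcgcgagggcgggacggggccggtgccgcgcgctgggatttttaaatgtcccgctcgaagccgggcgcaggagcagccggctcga
The late genes are Cdk1 (chr10:69352883-69353072, minus strand), Ccnb2 (chr9:70421525-70421714, minus strand), Top2a (chr11:99024160-99024349, minus strand) and Cenpa (chr5:30666726-30666915, plus strand). All 4 carry CCAAT boxes, on the strand shown as CCAAT or ATTGG, and a CHR word near the start, on the strand shown as TTTGAA or, in Top2a, TTCAAA. Of the 12 late genes with a window, Cdk1 is the single one that also carries an E2F word.
Cdk1: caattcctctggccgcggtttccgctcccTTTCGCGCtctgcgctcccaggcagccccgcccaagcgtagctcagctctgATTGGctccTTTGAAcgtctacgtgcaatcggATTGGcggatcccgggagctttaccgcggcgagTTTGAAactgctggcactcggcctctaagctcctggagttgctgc
Ccnb2: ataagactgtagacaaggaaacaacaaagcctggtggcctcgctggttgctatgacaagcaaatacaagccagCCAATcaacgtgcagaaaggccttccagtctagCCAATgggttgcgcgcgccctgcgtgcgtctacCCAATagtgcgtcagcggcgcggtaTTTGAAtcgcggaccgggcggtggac
Top2a: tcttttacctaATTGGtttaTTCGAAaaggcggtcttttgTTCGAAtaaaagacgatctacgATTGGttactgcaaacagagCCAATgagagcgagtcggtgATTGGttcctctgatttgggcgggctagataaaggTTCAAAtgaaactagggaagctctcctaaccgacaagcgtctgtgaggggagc
Cenpa: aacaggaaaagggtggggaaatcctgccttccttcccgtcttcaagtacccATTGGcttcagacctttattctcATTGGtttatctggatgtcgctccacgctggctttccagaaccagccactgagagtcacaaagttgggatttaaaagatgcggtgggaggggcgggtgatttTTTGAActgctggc

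Most member promoters were among the more accessible of the genome. For each gene the strongest peak at its own promoter, its main promoter peak, was compared per kb of peak width, on deposited values. The median over the 38 genes was 40.3 per kb, against 27.4 over all 16213 promoter peaks, and 30 of the 38 lay above that median. At the top stood Cenpf, a kinetochore protein of mitosis, with 99.7 per kb, and Pcna, the sliding clamp of the DNA polymerases, with 94.1. They were followed by Mcm3 with 80.6, Mcm4 with 80.3, Ccna2 with 75.6, E2f3 with 74.5 and Ccne1 with 72.1 per kb. At the low end stood Ccnd1 with 22.2, the thymidylate synthase gene Tyms with 20.5, Ccnb2 with 20.3 and E2f2 with 10.8, so that the range spanned 9.19-fold. Neighbours in this order were mostly not separable: 6 of the 37 neighbouring pairs kept their order in all 4 samples, among them Cenpf over Pcna, Pcna over Mcm3 and Ccnb2 over E2f2, and 31 did not. E2f2 was the lowest of the 38 in the mean, and it was the only E2F factor of the 3 below the promoter median. D-type cyclins had wide peaks, with 22.2 per kb over 9400 bp for Ccnd1, 28.4 per kb over 14200 bp for Ccnd2 and 27.5 per kb over 10700 bp for Ccnd3. The widest member promoter peak, of 18800 bp, covered the starts of both Mcm5 and the neighbouring Hmox1. In all, 8 of the 39 promoter peaks also lay at the promoter of another gene. The others were those of Mcm4 (Prkdc), Mcm7 (Ap4m1), Cdc45 (Ufd1), Aurka (Cstf1), Cdk2 (Pmel), Foxm1 (Rhno1) and 1 of the 2 Ccnd3 peaks (Taf8).

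**Figure D1:**
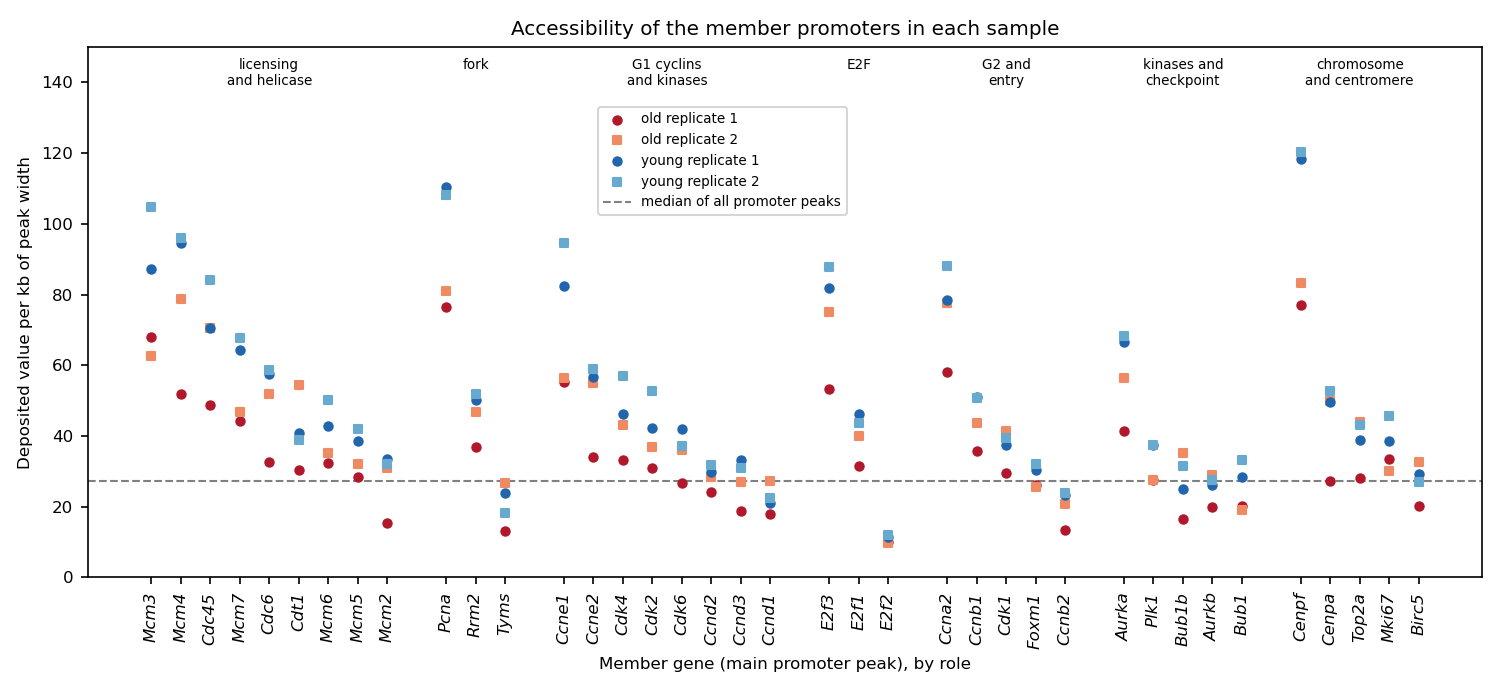
Deposited value per kb of peak width (vertical axis, linear) of the main promoter peak of each of the 38 member genes, grouped by role, with 1 point for each of the 4 samples. The dashed line is the median of all promoter peaks, 27.4 per kb, which 30 of the 38 genes exceed in the mean. These values carry no scaling between samples, and old replicate 1 gives the lowest point in many genes.

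No member peak passed the test between old and young. Limma, with Benjamini-Hochberg adjustment over all 117282 peaks and a threshold of adjusted p under 0.01, called 36 peaks lower and 30 higher in old samples, 0.0563% of all peaks, and none of them was a member peak. The lowest adjusted p of a member peak was 0.090, at a peak upstream of Ccne2. At unadjusted p under 0.05, 4 of the 106 member peaks were lower, against 8.87% of all peaks, and 9 were higher, against 7.49%. On the values as deposited, 1333 peaks (1.14%) were called lower and 52 (0.0443%) higher, and again no member peak was among them. Limma-voom on the recovered counts called 95 lower and 49 higher, with 0 members. The genome-wide counts depended on single samples: without old replicate 1 they were 6384 and 3925, without old replicate 2 they were 1228 and 461, without young replicate 1 they were 2 and 8, and without young replicate 2 they were 0 and 11. Without old replicate 1, 9 member peaks passed, 4 lower and 5 higher, and without old replicate 2, 1 passed, a promoter peak of Ccnd3 that was lower. With 1 old sample left, that sample is assumed to vary as the others do. Without old replicate 1, the share of member peaks that passed was near the share of all peaks. Passing in that setting, also where given below for single genes, is therefore no trait of the members.

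Below the threshold, the promoters of the member genes lay mostly on the lower side in old cells and their other peaks mostly on the higher side. Of the 39 own promoter peaks, 28 were lower in old samples and the median log2 ratio of old to young was -0.13, against -0.03 and 54.7% lower for all promoter peaks. In 16 of the 39 both old samples lay below both young ones, against 25.7% of all promoter peaks, and in 4 both lay above, against 15.7%. The median was -0.13 and -0.12 for old replicate 1 against the young samples and -0.10 and -0.02 for old replicate 2. The background itself depended on strength. Among the top 25% of all promoter peaks by value, 69.7% were lower in old samples, with a median of -0.08. In this set both old samples lay below both young ones in 1540 of 4054 peaks and above them in 308. Of the 38 main promoters, 20 belong to this set, and 17 of the 20 were lower. Without old replicate 1 the member median was -0.04, with 59.0% lower. The direction held under quantile normalization, equal total signal and the deposited values, with 25, 24 and 37 of the 39 lower, while the median of all promoter peaks was 0.002 with quantile normalization and 0.04 with equal total signal. On deposited values 86.8% of all promoter peaks were lower, with a median of -0.31.

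The 62 member peaks away from promoters had a median log2 ratio of 0.06, and 40 were higher in old samples, against 0.01 and 50.9% for all such peaks. In 20 of the 62 both old samples lay above both young ones, against 24.4% of all peaks away from promoters, and in 9 both lay below, against 24%. Exonic peaks leaned to the higher side in the whole table, with 58.7% higher and a median of 0.08, and 18 of the 26 exonic member peaks were higher, with a median of 0.07. Of the 33 intronic member peaks, 21 were higher, with a median of 0.06, against 51.7% and 0.02 for all intronic peaks. The direction rests on the scaling: on deposited values 42 of the 62 were lower, with a median of -0.21, where all peaks had shifted by -0.27 on the log2 scale.

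**Figure D2:**
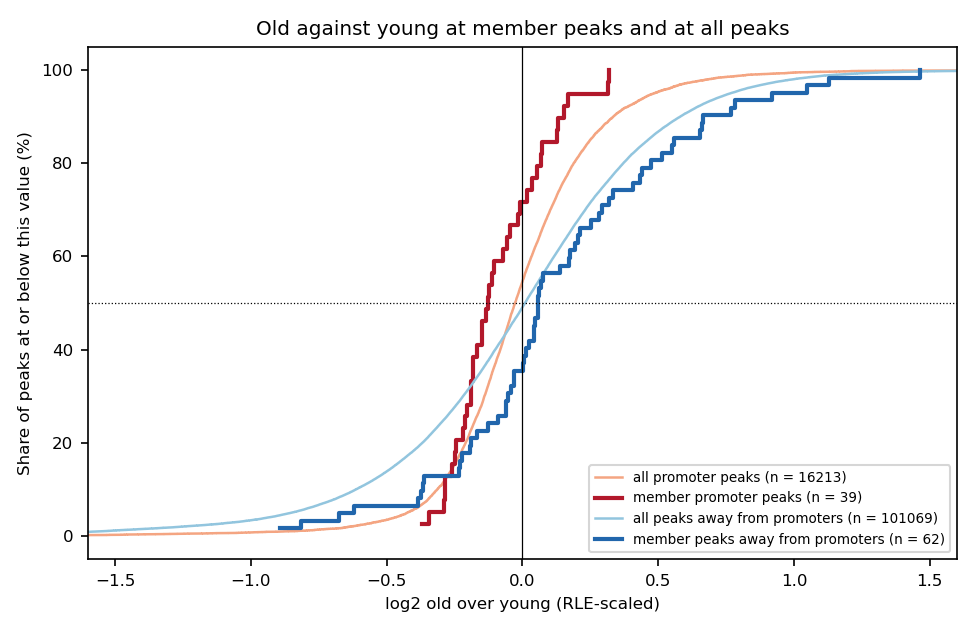
Share of peaks (vertical axis, %) at or below each log2 ratio of old to young on RLE-scaled values (horizontal axis) for the 39 member promoter peaks, the 62 member peaks away from promoters and all peaks of each kind. The member promoters cross 50% at -0.13, left of all promoter peaks at -0.03, and the member peaks away from promoters cross it at 0.06.

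Among the 7 roles, on RLE-scaled values of all 4 samples, origin licensing and helicase genes leaned most uniformly to the lower side. Of their 9 main promoters 8 were lower in old samples, with a median log2 ratio of -0.20 and none past the threshold. The same 8-to-1 split was found on deposited values, under quantile normalization and with equal total signal, and it became 6 to 3 without old replicate 1. The rank did not hold in every setting. On deposited values, where 86.8% of all promoter peaks were lower, the E2F factors and the fork genes each had 3 of 3 lower. The groups of G2 and mitotic entry, of mitotic kinases and checkpoint, and of the mitotic chromosome each had 5 of 5 lower. Without old replicate 1 the E2F factors had 3 of 3 lower. The fork genes had 3 of 3 lower without old replicate 2 and without young replicate 2. The peaks of Mcm4, Mcm7, Mcm5 and Cdc45 were shared with the promoters of Prkdc, Ap4m1, Hmox1 and Ufd1, in that order. Mcm4, a subunit of the replicative helicase, had values of 165 and 202 in the old samples and 229 and 217 in the young ones. Both old samples lay below both young ones, and the log2 ratio was -0.29 (SE 0.15, limma adjusted p = 0.352). Mcm7, another helicase subunit, had 216 and 185 in old and 240 and 235 in young samples, also without overlap, with a log2 ratio of -0.25 (SE 0.14, adjusted p = 0.407).
Mcm6 had 151 and 132 against 152 and 166, and Mcm5 had 656 and 594 against 678 and 687. The groups did not overlap in either gene, although old replicate 1 and young replicate 1 of Mcm6 were nearly equal. Mcm3 had 158 and 118 against 154 and 173, so old replicate 1 reached into the young range. Mcm2 split the old samples, with 36.0 and 57.9 against 59.4 and 52.9, and its log2 ratio moved from -0.29 to 0.05 without old replicate 1. Cdc6, the loader of the helicase, had 44.1 and 56.4 against 59.1 and 56.1, and Cdc45, which joins the helicase when the origin fires, had 155 and 181 against 171 and 190, each with overlap.
The exception was Cdt1, the partner of Cdc6 in loading the helicase. Its promoter had 137 and 198 in old and 141 and 125 in young samples, a log2 ratio of 0.31 (SE 0.18, adjusted p = 0.395), and old replicate 2 alone stood above the young samples. Without old replicate 1, Cdt1 (0.58), Mcm3 (-0.47) and the exonic peak of Mcm7 described below passed the threshold.

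Genes of the fork and of nucleotide supply had a median log2 ratio of -0.01 at their promoters. Of the 3 promoters 2 were lower, which became 1 of 3 with quantile normalization or equal total signal. Pcna had 206 and 176 in old and 227 and 207 in young samples, with a log2 ratio of -0.18 (SE 0.15, limma adjusted p = 0.572). Its groups did not overlap, although old replicate 1 and young replicate 2 were almost level. Rrm2, a subunit of the ribonucleotide reductase that makes deoxynucleotides, had 280 and 287 against 290 and 279, a log2 ratio of -0.01. The groups of Rrm2 overlapped. Tyms, with one of the weakest member promoters, had 21.0 and 34.3 against 29.0 and 20.7, so that the spread within each group exceeded the difference between them.

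The cyclins of G1 differed among themselves in sign. Ccne1, the cyclin that with Cdk2 starts S phase, had the lowest log2 ratio of any member promoter. Its peak (chr7:38106101-38108700, mm10) had 176 and 145 in old and 200 and 213 in young samples. The groups did not overlap, and the log2 ratio was -0.37 (SE 0.15, unadjusted p = 0.0257, limma adjusted p = 0.235). Without old replicate 1 it was -0.51 and passed the threshold. Ccnd1, cyclin D1, lay on the opposite side. Its peak (chr7:144934801-144944200) had 208 and 254 in old and 185 and 183 in young samples, with a log2 ratio of 0.32 (SE 0.15, unadjusted p = 0.0449, adjusted p = 0.293), which became 0.46 and passed without old replicate 1. On deposited values its log2 ratio was 0.03, at a point where all peaks were lower by 0.27.
Both other Ccnd1 peaks, centred 8.12 and 11.1 kb from the start, the second at the end of the gene, were higher in both old samples as well, with log2 ratios of 0.47 and 0.43. Ccnd2 had 418 and 397 against 393 and 392, a log2 ratio of 0.05 that was negative (-0.24) on deposited values. Ccnd3 had 245 and 286 in old and 332 and 286 in young samples at its main promoter peak. This peak lies 92.8 kb after the first annotated start, at an internal start. The groups of Ccnd3 did not overlap there, although old replicate 2 and young replicate 2 were almost level. Its other promoter peak, shared with Taf8, had 134 and 182 against 187 and 184, with a log2 ratio of -0.25, and was the one that passed without old replicate 2.
Cdk4, the kinase partner of the D-type cyclins, had 118 and 124 against 125 and 144, and Cdk2, the partner of the E-type cyclins, had 98.5 and 94.7 against 102 and 119. Both were without overlap, with log2 ratios of -0.15 and -0.19. Ccne2 and Cdk6 had overlapping groups and log2 ratios of -0.12 and -0.06, and Ccne2 was positive (0.06) without old replicate 1. In all, 6 of the 8 promoters of this group were lower, with a median of -0.14, and without old replicate 1 it was 4 of 8.

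Among the E2F factors, E2f3 had the strongest promoter, with 300 and 341 in old and 351 and 350 in young samples and a log2 ratio of -0.13 (SE 0.13, adjusted p = 0.649). E2f1 had 248 and 253 against 276 and 243, and E2f2 had 24.4 and 19.4 against 21.5 and 21.0, with log2 ratios of -0.05 and 0.04. The values of E2f1 and E2f2 overlapped between the groups, and the sign of each changed under another scaling.

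Genes of G2 and entry into mitosis had a median log2 ratio of -0.02 at their promoters, with 3 of 5 lower, which became 2 of 5 with quantile normalization or equal total signal. Cdk1, the kinase that drives mitosis, had 109 and 123 in old and 105 and 103 in young samples, a log2 ratio of 0.15 (SE 0.17, adjusted p = 0.701) that was -0.14 on deposited values. Ccnb2, one of its cyclin partners, had 47.5 and 59.2 against 63.4 and 59.9, a log2 ratio of -0.21. The 2 genes thus lay on opposite sides, each without overlap, and in each the nearest old and young values differed by less than the old samples differed from each other. Ccnb1 had 87.8 and 86.5 against 95.4 and 88.0, Ccna2 had 171 and 184 against 176 and 184, and Foxm1, a transcription factor of late cell cycle genes, had 221 and 174 against 195 and 192, with log2 ratios of -0.07, -0.02 and 0.01.

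In the group of mitotic kinases and checkpoint genes, Bub1, a kinase of the spindle checkpoint, had the second lowest log2 ratio of all member promoters. Its values were 42.0 and 32.2 in old and 44.9 and 49.0 in young samples, without overlap, and the log2 ratio was -0.34 (SE 0.22, adjusted p = 0.459). Aurka, a kinase of the spindle poles, had 137 and 150 against 168 and 160, also without overlap, with a log2 ratio of -0.19, and its peak is shared with the start of Cstf1. Plk1 had 128 and 104 against 132 and 124, Bub1b had 26.1 and 45.2 against 30.4 and 35.4, and Aurkb had 44.1 and 51.6 against 43.9 and 43.1. Bub1b is one of the weaker member promoters, and its log2 ratio ran from -0.32 to 0.45 as single samples were left out.
Among genes of the mitotic chromosome, Cenpf, the densest member promoter, had 160 and 140 in old and 187 and 177 in young samples. The groups did not overlap, and the log2 ratio was -0.28 (SE 0.15, adjusted p = 0.367). Cenpa, the histone H3 variant of centromeres, had 69.8 and 103 against 97.0 and 96.0, and Mki67, which coats mitotic chromosomes, had 123 and 89.2 against 108 and 119. Top2a, a topoisomerase that untangles sister chromatids, had 72.3 and 91.0 against 75.9 and 78.5, and Birc5, survivin, had 82.2 and 107 against 90.1 and 77.1. In these 4 genes the groups overlapped, and the sign changed as single samples were left out.

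**Figure D3:**
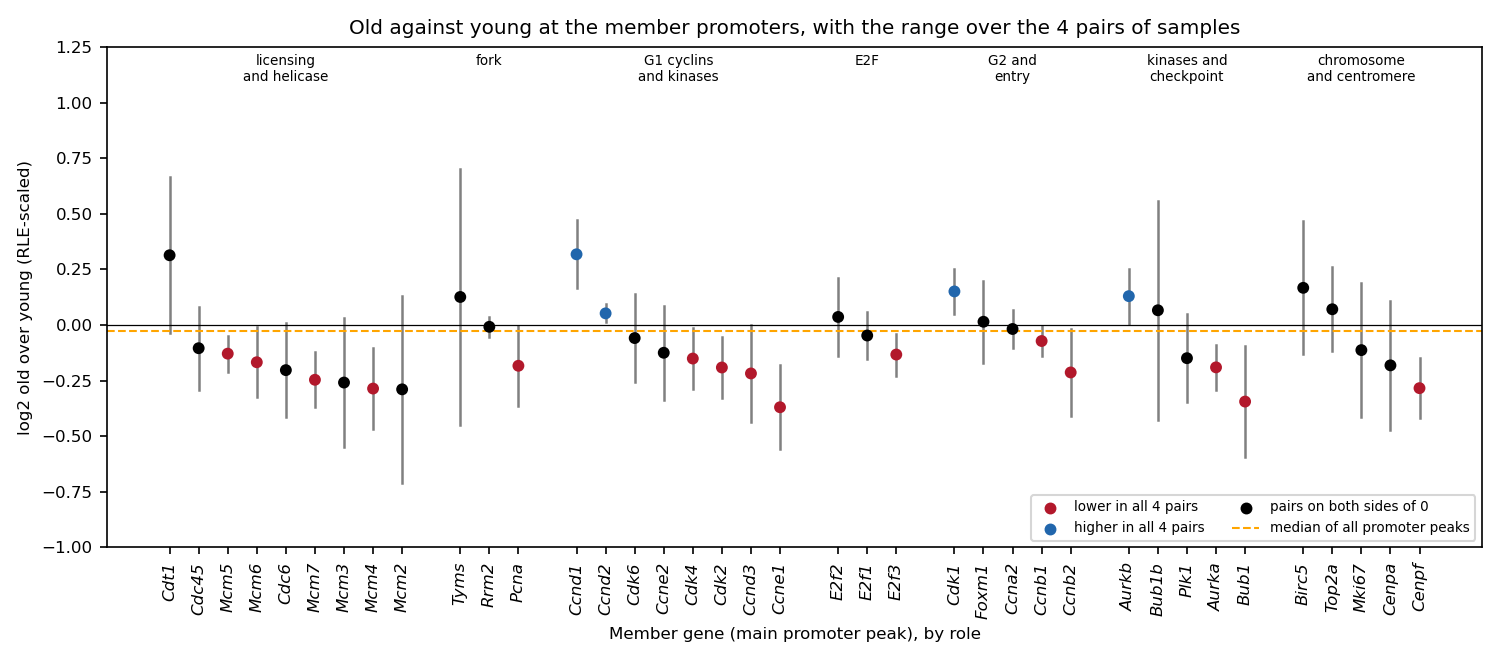
Log2 ratio of old to young on RLE-scaled values (vertical axis) at the main promoter peak of each of the 38 genes by role. Points are limma estimates, bars span the 4 pairs of 1 old and 1 young sample, and the dashed line is the median of all promoter peaks. The ratio is lower in all 4 pairs in 15 genes (25.7% of all promoter peaks, and 1540 of the 4054 in the top 25% by value). The nearest pair is almost level in Pcna (-0.0024), Ccnd3 (-0.0016) and Ccnb1 (-0.0038). The ratio is higher in all 4 in Ccnd1, Ccnd2, Cdk1 and Aurkb (15.7% of all promoter peaks, and 308 of those 4054). No gene passed the threshold.

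Promoters with an E2F word (7 of 10 lower) and without one (17 of 21 lower) had the same median log2 ratio of -0.15. Those with a CHR word had a median of -0.17 (11 of 14 lower), against -0.13 (13 of 17 lower) for those without. Those with a CCAAT box had -0.17 (19 of 23 lower), against -0.05 (5 of 8 lower) for those without. These are descriptions over 31 genes, and most late genes carry both of the last 2 motifs.

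The largest ratios belonged to weak peaks away from promoters. Among member peaks whose groups did not overlap, the 5 with the largest ratios on each side were taken. On the higher side, a 400 bp peak 4.55 kb before the start of Ccne2 (chr4:11186601-11187000) had 8.99 and 5.46 in old and 1.32 and 2.66 in young samples. Its log2 ratio was 1.46 (SE 0.42, limma adjusted p = 0.090), and the value of young replicate 1 rested on 4 reads. The promoter of the same gene had a ratio of -0.12, with overlapping groups.
An exonic peak of Ccnb1, a cyclin partner of Cdk1, had 13.3 and 11.2 against 7.59 and 3.25, with a log2 ratio of 1.13 (SE 0.37, adjusted p = 0.128). An exonic peak of Mcm2, 5.08 kb from the start, had 8.13 and 9.71 against 2.31 and 5.91, with a log2 ratio of 1.05 (SE 0.40, adjusted p = 0.192). In both, the young samples differed from each other by more than the old ones did.
On the lower side, an intronic peak of Cdk6 25.8 kb from the start had 8.56 and 3.64 in old and 11.2 and 11.5 in young samples, with a log2 ratio of -0.89 (SE 0.36, adjusted p = 0.231). An exonic peak of Mcm7, 7.12 kb from the start (chr5:138164601-138166000), had 18.8 and 14.9 against 30.0 and 30.4, with a log2 ratio of -0.82 (SE 0.25, adjusted p = 0.106). The young samples of this peak were almost equal, and it had the lowest adjusted p of any member peak on deposited values, 0.0238. A peak 5.24 kb before Rrm2 had 14.98 and 11.5 against 22.4 and 19.2, with a log2 ratio of -0.62. A second Cdk6 peak, 66.7 kb from the start, had 5.99 and 7.28 against 8.58 and 9.15, with a ratio of -0.37, and the Ccne1 promoter given above completes the 5. Without old replicate 1 the Mcm7 peak (-0.98) and the first Cdk6 peak (-1.41) passed the threshold.

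**Figure D4:**
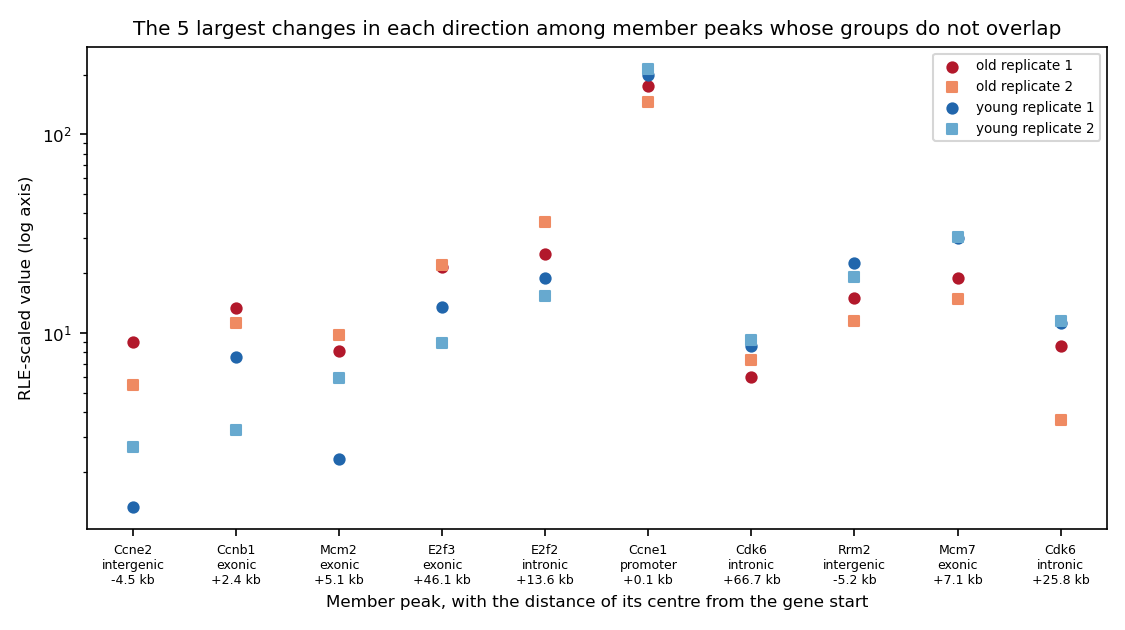
RLE-scaled values (vertical axis, logarithmic) in each of the 4 samples at the 10 member peaks with the largest ratios on each side among those whose groups do not overlap, ordered from the largest to the smallest ratio. Labels give the gene, the kind of site and the distance of the peak's centre from the gene start. The Ccne1 promoter is the single strong peak, and the other 9 lie below 40 in every sample.

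The peaks of E2f2 and E2f3 away from promoters were all on the higher side in old samples. The promoter of E2f3 was on the lower side, and that of E2f2 had a log2 ratio of 0.04 with overlapping groups. The 9 peaks of E2f2 and E2f3 away from promoters had a median log2 ratio of 0.34 and none was lower, where 50.9% of all peaks away from promoters were higher. In 7 of the 9 both old samples lay above both young ones, against 24.4% of all such peaks. All 9 were also higher under quantile normalization and with equal total signal, but on deposited values 5 were higher and 4 lower. With any single sample left out, at least 8 of the 9 were higher. Peaks within 1 gene are not independent of each other, and none of the 9 passed the threshold.
An exonic E2f3 peak 46.1 kb from the start (chr13:29939301-29940700) had 21.4 and 21.8 in old and 13.5 and 8.86 in young samples, with a log2 ratio of 0.92 (SE 0.28, adjusted p = 0.110). An intronic one 63.8 kb from the start had 7.28 and 10.3 against 5.28 and 4.13, with a ratio of 0.77. The intronic E2f2 peak 13.6 kb from the start (chr4:136185201-136186700) had 24.8 and 36.1 against 18.8 and 15.4, with a ratio of 0.78 (SE 0.26, adjusted p = 0.139), and it passed the threshold without old replicate 1 (1.04). In each of these 3 the groups did not overlap.
The 14 peaks of Cdk6 away from its promoter were spread along 175.5 kb and showed no such common side. Their median log2 ratio was 0.02, with 10 higher and 4 lower, and without old replicate 1 it was -0.17, with 5 higher and 9 lower, and on deposited values 2 were higher. In the same gene as the peak at 25.8 kb that was lower lay one at 39.5 kb with 35.5 and 48.5 in old and 27.7 and 24.2 in young samples, a ratio of 0.66 (SE 0.23, adjusted p = 0.164) that was 0.88 and passed without old replicate 1. Cenpf had 3 peaks higher and 3 lower in its body, with log2 ratios from -0.68 to 0.65 and a median of -0.10. The exonic peak 8.09 kb from its start had 33.4 and 44.6 against 24.1 and 24.2, with a ratio of 0.65 (SE 0.23, adjusted p = 0.168), opposite in sign to its promoter, and it too passed without old replicate 1 (0.86).
The 4 body peaks of Ccnb1, Ccnb2 and Cdk1 were all higher, with a median of 0.31, but 3 of the 4 were lower without old replicate 2. In the other roles, away from promoters, 15 of 25 peaks of G1 cyclins and kinases, 5 of 11 of licensing genes, 0 of 1 of the fork and nucleotide supply, 2 of 4 of the mitotic kinases and checkpoint genes and 5 of 8 of the mitotic chromosome genes were higher. The 5 member peaks at promoters of neighbouring genes (Tpra1, March9, Tspan31, Necab3 and Tex52 with Gm44596) had ratios from -0.13 to 0.19, and in all 5 the groups overlapped.

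**Figure D5:**
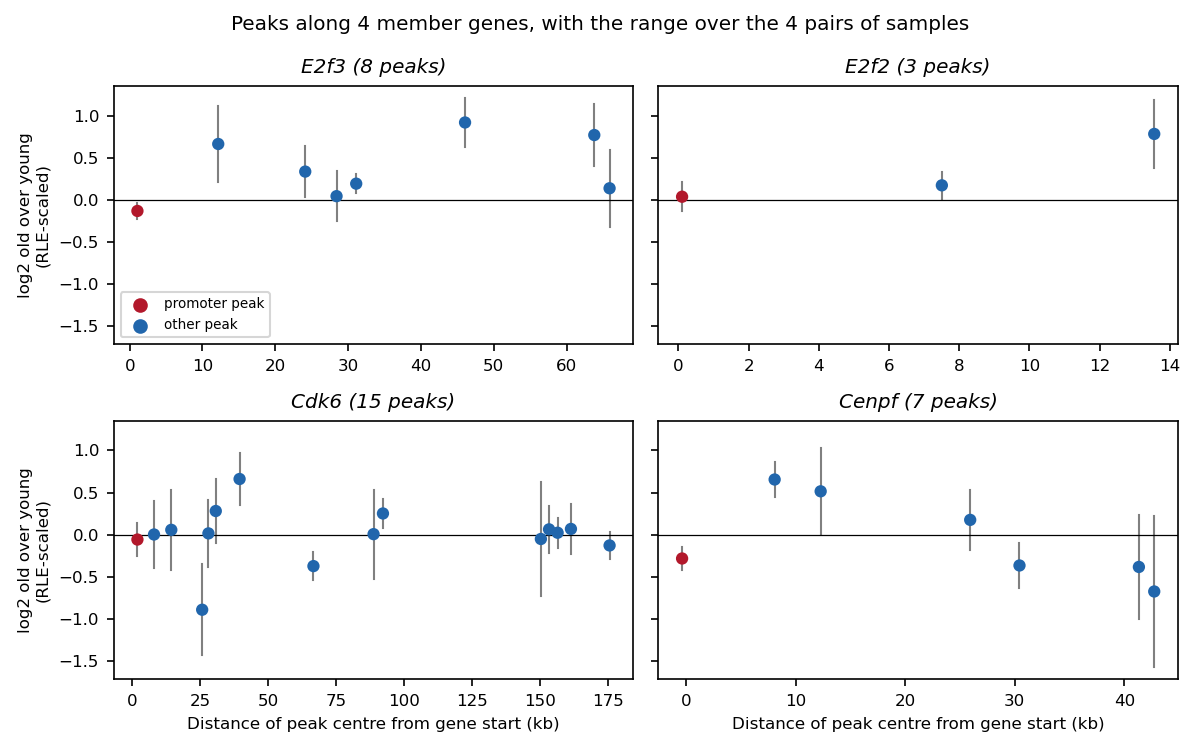
Log2 ratio of old to young on RLE-scaled values (vertical axis) at every peak of E2f3, E2f2, Cdk6 and Cenpf, by the distance of the peak's centre from the gene start in kb (horizontal axis). Bars span the 4 pairs of 1 old and 1 young sample. In E2f3 the 7 peaks away from the promoter lie above 0 and the promoter below it, while in Cdk6 and Cenpf such peaks lie on both sides.

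Other genes of the cell cycle gave a similar picture at their promoters. The list of 107 genes covers origin recognition and firing, polymerases and fork factors, nucleotide supply, retinoblastoma, DREAM and E2F factors, kinetochore and spindle, condensin and cohesin, and mitotic entry and exit. All 107 had a promoter peak, with a median of 47.3 per kb. None passed the threshold (limma, lowest adjusted p = 0.249), 7 were lower at unadjusted p under 0.05, against 5.36% of all promoter peaks, and 0 were higher, against 4.29%. The share of 7 in 107 is near that of all promoter peaks. The log2 ratio was below 0 in 79 of the 107, against 54.7% of all promoter peaks, with a median of -0.14. Strong promoters leaned lower in general. In the top 25% of all promoter peaks by value 69.7% were lower (median -0.08), and in the 25% below them 60.8% (median -0.05). Both old samples lay below both young ones in 45, against 25.7% of all promoter peaks, and above them in 1, against 15.7%. In the top 25% these counts were 1540 and 308 of 4054 peaks, and in the 25% below them 1115 and 399 of 4053. On deposited values 106 were lower, where 86.8% of all promoter peaks were, under quantile normalization 72 and with equal total signal 66.
The 7 were Gins1, Cenpe, Zwint, Sgo1, Rpa3, Orc5 and E2f5, and nothing further is read from them. The groups of Zwint overlapped, with 367 and 249 in old and 358 and 425 in young samples over a peak of 18000 bp. Gins1, part of the GINS complex of the active helicase, had 87.3 and 82.2 in old and 110 and 114 in young samples, with a log2 ratio of -0.40 (SE 0.17, adjusted p = 0.252). Cenpe, a kinesin of the kinetochore, had 114 and 96.2 against 126 and 146, with a ratio of -0.37. Rpa3, a subunit of the protein that coats single-stranded DNA, had 178 and 154 against 205 and 218, with a ratio of -0.35, and the groups of all 3 did not overlap. By group, 13 of 16 origin recognition and firing genes were lower (median -0.20) and 7 of 8 condensin and cohesin genes (-0.19). The counts were 12 of 15 for mitotic entry and exit (-0.10), 12 of 15 for retinoblastoma, DREAM and E2F factors (-0.05), 17 of 25 for kinetochore and spindle (-0.12), 16 of 23 for polymerases and fork factors (-0.15) and 2 of 5 for nucleotide supply (0.12). The 1 gene with both old samples above both young ones was Rbl1, a retinoblastoma relative, with 39.4 and 47.9 against 37.6 and 30.7 and a ratio of 0.35.

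Markers of the cells were read at the same kind of promoter peak. All 7 MSC genes had one, from 6.45 per kb for Eng to 23.2 for Pdgfrb and 23.4 for Pdgfra, which encodes CD140a. Several of these peaks were wide, with 15200 bp at Pdgfra, 18900 bp at Pdgfrb and 20500 bp at Cxcl12, against a median of 2800 bp for the main member promoters, so values per kb of the 2 lists are not compared. No promoter peak was found for Ptprc, which encodes CD45, nor for Itgam and Cd3e of blood, Cdh5 and Tie1 of endothelium, and Gata1 and Hbb-bs of erythroid cells, and Cd3e, Gata1 and Hbb-bs had no peak at all. Promoter peaks were present at Spi1 (15.1 per kb), Kdr (18.0), Pecam1 (11.4) and Epor (11.3). Summed over the MSC markers, the RLE-scaled values were 1511 and 1759 in old and 1481 and 1393 in young samples. The endothelial sum was 42.0 and 40.7 against 30.0 and 32.2, and the blood value, from Spi1 alone, was 10.7 and 8.49 against 13.9 and 8.86. The MSC and endothelial sums were thus higher in both old samples, and the part of the cell mixture in the differences above was not tested. The mitochondrial share of the signal was 15.7% and 6.52% in the old samples and 13.5% and 14.5% in the young ones, so that old replicate 2 stood apart, and its part was likewise not tested.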

How the data were processed

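ATAC-seq peak values were used for 2 old and 2 young MSC samples. The peak table deposited by the authors names its values RPKM, but every value is a whole multiple of 1 step per sample (tolerance 0.001 counts), equal to a count scaled to 10000000 reads of the library and not to peak width, and so they were treated as a score. Per the labels, reads were aligned to mm10 with Bowtie2 and handled with Picard. The study's methods describe Bowtie2, removal of duplicates and chromstaR peak calling for its other ATAC-seq samples, and whether the same settings made this table is not given in the sources used here. No column held values of other samples.

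Values were divided by RLE factors and log2-transformed after adding a pseudocount of 1, so ratios of weak peaks are understated. Old and young were compared by limma 3.58.1 in R 4.3.3 with trended and robust moderation and Benjamini-Hochberg adjustment over all 117282 peaks, with no filter. The deposited values are scaled, so the main test was on their logarithms and the recovered counts served as an alternative. The fit was tested on simulated data. Genes and starts came from GENCODE vM21 (GRCm38), and sequences from RefSeq (GRCm38.p6), with all 8 printed stretches matched to the genome. Peaks were named by a rule: the main promoter peak of each gene, and the 5 largest ratios on each side among peaks whose groups did not overlap. Members, related genes, markers and motifs were chosen with earlier results of these data known, so no p-value is given over a list. The counts of calls, the medians over member peaks and the named peaks were computed again with deposited values, quantile normalization or equal total signal in place of RLE, with a pseudocount of 0.1 or 5, without weak peaks, with plain moderation, by limma-voom on recovered counts, with a replicate block, and with each sample left out. Medians were not repeated for plain moderation, limma-voom or the block. Counts by role were repeated for the scalings and left-out samples alone, and motif medians, marker sums and the order per kb were not repeated. Some of the blood and erythroid markers are not reported here.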

Additional observations from a re-analysis of the deposited data

How the results depend on the processing

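With 2 samples a group the test had little precision, and which peaks passed depended on the moderation and on single samples. Over all peaks, 36 were called lower and 30 higher in old. The counts were 904 and 412 at adjusted p under 0.05, 1333 and 52 on deposited values, 7 and 15 with equal total signal, 11 and 13 with a pseudocount of 0.1, 7 and 8 after the filter on weak peaks, 95 and 49 with limma-voom, and 0 and 0 with plain moderation, where 9424 and 8722 had an unadjusted p under 0.05. Leaving out 1 sample gave 0 to 6384 lower and 8 to 3925 higher, and 0 to 4 member peaks lower and 0 to 5 higher. No member peak passed in any of the settings that kept all 4 samples. The cause of these differences was not tested.

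Same-numbered samples did not deviate together (correlation of deviations -0.0993), so the numbers were not taken as pairs. The replicate block gave 907 lower and 362 higher peaks, with no member among them.

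On deposited values, which are lower in old samples at most peaks, the median log2 ratio and the share lower were -0.275 and 79.2% for all member peaks, -0.417 and 94.9% for own promoters, and -0.215 and 67.7% away from promoters. With equal total signal they were 0.0605 and 40.6%, -0.0597 and 61.5%, and, away from promoters, 27.4% lower. Leaving out 1 sample gave medians of -0.0593 to 0.0289 (46.2% to 57.5% lower) for all member peaks, -0.129 to -0.0402 (59.0% to 76.9%) for own promoters and 0.0816 to 0.167 (35.5% to 45.2%) away from them. The sign of the ratio at a main promoter changed on deposited values for Top2a (-0.214), Cdk1 (-0.135), Foxm1 (-0.273), Ccnd2 (-0.236), Birc5 (-0.118), Bub1b (-0.213), Aurkb (-0.153), Tyms (-0.150) and E2f2 (-0.240). It changed with quantile normalization and equal total signal for Ccna2 (0.0284 and 0.0509), Rrm2 (0.0533 and 0.0609) and E2f1 (0.0146 and 0.0217), with equal total signal for Cdk6 (0.0101) and with limma-voom for Foxm1 (-0.0011). Leaving out 1 sample changed the sign at 16 promoters, with ranges of -0.0718 to 0.0362 for Ccna2, -0.216 to 0.0076 for Cdc45, -0.313 to 0.0638 for Ccne2, -0.0351 to 0.0193 for Rrm2, -0.462 to 0.0995 for Cenpa, -0.138 to 0.0432 for E2f1, -0.0927 to 0.235 for Top2a, -0.342 to 0.116 for Mki67, -0.199 to 0.0816 for Cdk6, -0.302 to 0.0035 for Plk1, -0.158 to 0.188 for Foxm1, -0.626 to 0.0476 for Mcm2, -0.0196 to 0.354 for Birc5, -0.318 to 0.451 for Bub1b, -0.215 to 0.468 for Tyms and -0.121 to 0.194 for E2f2. The other named peaks kept their sign in every setting run.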
